A study of Mus musculus with 16 samples.

Results

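Transcription factors that define microglia and other macrophages were followed across engrafted cells and host microglia of irradiated bone marrow chimeras, with and without a systemic LPS challenge. The genes were chosen by name, for what is known of them: Sall1, Sall3, Spi1, Irf8, Mef2a, Mef2c, Maf, Runx1 and Cebpa. They are 9 of the 24411 genes in the count table. Earlier results of these data were known at that point, and the study had already reported on Sall1, Sall3 and Mef2c in these populations. Recipients were wild-type C57BL/6J mice that carried the CD45.2 allele, were irradiated with 950 cGy and received wild-type bone marrow with the CD45.1 allele. Each of 8 mice gave a library of either population, which makes 4 groups of 4: CD45.2 host cells and CD45.1 engrafted cells of mice 5 to 8, which received no LPS, and of mice 1 to 4, which received 2.5 mg/kg LPS and were analysed after 12 h. LPS is lipopolysaccharide, the cell wall component of gram-negative bacteria that activates macrophages through TLR4. Host cells had been irradiated in place and engrafted cells descend from marrow that was not, so irradiation and origin cannot be told apart in any comparison of the populations. The labels give 3.5 or 9 months between transplantation and analysis without saying which libraries belong to which interval, while the text of the study places both the transcriptomes of engrafted and host cells and the LPS challenge at 9 months. The sort took 10000 cells that stained for CD11b and weakly for CD45.1 (graft) or CD45.2 (host), and not for Ly6C/G. Levels are counts per total of reads on genes, scaled as CPM, so fewer cells of a kind and less RNA per cell cannot be told apart.

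Macrophage identity is written in layers. PU.1, the ETS factor encoded by Spi1, opens enhancers in all macrophages together with partners that include IRF8, C/EBPα and RUNX1, and the last of these also marks the first blood-forming cells. On that shared base, tissue signals add factors of their own. In microglia, TGF-β signalling maintains SALL1, a zinc finger repressor that is found in microglia but in few other haematopoietic cells and that keeps the resting programme in place. SALL3 is its close paralogue. MEF2A and MEF2C are MADS-box factors held back by class IIa histone deacetylases, MEF2C is known to restrain the inflammatory response of microglia, and c-MAF, a large bZIP factor, limits self-renewal of macrophages and favours IL-10 and complement expression.

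Libraries held 395283 to 1203597 reads on genes, with 10652 to 13491 genes detected. The sorted cells carried macrophage markers in every library: the summed level of 7 markers, Cx3cr1, Csf1r, Itgam, Aif1, Fcrls, P2ry12 and Tmem119, was 17538 to 20550 CPM in host cells and 13721 to 14985 CPM in engrafted cells of control mice, and 9180 to 10695 and 5892 to 7040 CPM after LPS. Neutrophil markers (7 genes, all detected in engrafted cells) summed to 266 to 1240 CPM in engrafted cells of control mice, 24.4 to 464 CPM in those of LPS mice and at most 15.0 CPM in host cells, where Ly6g and Retnlg were at 0. The 6 monocyte markers summed to 172 to 293 CPM in engrafted control cells, 928 to 1942 CPM in engrafted LPS cells and 8.77 to 48.7 CPM in host cells. In engrafted cells all of these monocyte markers but Ccr2 were higher after LPS. Ly6c2 was at 21.6 to 39.3 CPM without LPS and 412 to 871 CPM after it, and Plac8 at 10.1 to 30.2 and 202 to 630 CPM. Chil3 was at 14.4 to 34.4 and 128 to 319 CPM, Vcan at 0 to 2.01 and 16.8 to 33.8 CPM, and Fn1 at 1.69 to 10.8 and 42.1 to 63.8 CPM. Ccr2 went the other way, from 84.6 to 227 CPM down to 31.7 to 62.5 CPM. The part of neutrophil and monocyte markers in the differences between populations was not tested. The engrafted library of LPS mouse 4 stood apart. It was the shallowest, its mean correlation of log2 CPM with the other libraries of its group was 0.879 against 0.926 to 0.962 for the other 15 libraries, and its red cell markers (Hba-a1, Hbb-b1, Alas2) summed to 4298 CPM. High sums were also read in the engrafted library of control mouse 8 (2878 CPM) and in the host libraries of mice 4 and 8 (554 and 512 CPM), and the other 12 libraries had at most 117 CPM. Values without the engrafted library of mouse 4 stand beside the results it changed.

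The regulatory letters directly upstream show how unlike these genes are in base composition, and where the letters known to be bound by PU.1 lie. Shown are the 250 bases before the start of the transcript model used for counting, read 5′ to 3′ on the gene's strand from the mm9 genome. Capitals mark GAGGAA, the ETS core bound by PU.1, on either strand. Sall1 is printed as the factor on which the populations differed, Mef2c as the gene whose response to LPS differed and Runx1 as the gene that rose.
Sall1, chr8:91568062-91568311, minus strand: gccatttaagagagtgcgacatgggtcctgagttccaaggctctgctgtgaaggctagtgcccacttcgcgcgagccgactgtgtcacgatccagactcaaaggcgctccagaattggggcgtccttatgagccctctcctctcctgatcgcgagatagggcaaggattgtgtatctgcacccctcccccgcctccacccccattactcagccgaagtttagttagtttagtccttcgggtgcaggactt
Mef2c, chr13:83642783-83643032, plus strand: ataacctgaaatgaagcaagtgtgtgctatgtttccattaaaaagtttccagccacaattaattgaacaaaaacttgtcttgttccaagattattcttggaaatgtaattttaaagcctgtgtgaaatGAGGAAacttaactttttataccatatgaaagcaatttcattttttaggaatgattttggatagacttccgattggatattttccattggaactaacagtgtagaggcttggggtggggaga
Runx1, chr16:92697575-92697824, minus strand: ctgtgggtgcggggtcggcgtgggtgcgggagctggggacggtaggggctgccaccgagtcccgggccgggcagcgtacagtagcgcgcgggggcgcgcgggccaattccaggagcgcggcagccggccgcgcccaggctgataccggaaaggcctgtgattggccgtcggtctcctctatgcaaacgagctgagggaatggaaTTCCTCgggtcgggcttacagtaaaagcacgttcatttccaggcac

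GC content was 56.4% for Sall1, 67.6% for Runx1 and 33.6% for Mef2c, and it went up to 71.2% in the window of Maf. The ETS core was in 3 of the 8 windows searched (those of Mef2a, Mef2c and Runx1), with 22.9% of 24341 such windows of all genes holding it. Mef2a had it at 2 places, 114 to 109 and 103 to 98 bases before the start. The longer PU.1 motif GAGGAAGT (2.35% of all windows), the paired interferon-response letters GAAANNGAA (7.16%), the C/EBP motif TTGCNNAA (8.80%), the RUNX motif TGTGGT (12.4%), the MAF motif TGCTGAC (3.55%), the AP-1 motif TGANTCA (6.16%), the NF-κB motif GGGNNTTCC (5.18%) and the MEF2 motif (0.477%) matched none of the 8. GAGGAA is part of GAGGAAGT. Reads were counted near the 3′ end of transcripts over 1 model per gene. Alternative starts, such as those of Runx1, were therefore not resolved for any of these genes.

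The question put to control mice was which of the lineage factors a graft-derived cell shares with the microglia beside it. Sall1 and Sall3 were nearly confined to host microglia, and 6 of the remaining 7 factors did not pass the test. A gene was called when its log2 fold change exceeded 1 in size (2-fold) with an adjusted p below 0.05 in edgeR. By this rule 2 of 9 factors were called, both lower in engrafted cells, where 11.0% of the 8042 genes tested were called, 6.25% higher and 4.73% lower. The 9 log2 fold changes had a median of -0.05, against 0.02 for all genes. Without the fold criterion 3 of 9 factors passed, and 27.3% of all genes. Groups did not overlap for 3 of the 9 factors and for 26.6% of genes.

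Sall1 (NM_021390, chromosome 8, 91551143 to 91568061 in mm9) was at 318, 318, 361 and 289 CPM in the host microglia of control mice 5 to 8. In the engrafted cells of the same mice it stood at 19.1, 3.37, 21.3 and 25.2 CPM, from 19, 2, 13 and 14 reads. Every host library was therefore more than 10 times the highest engrafted one. The log2 fold change, engrafted against host, was -4.14 (SE 0.23, adjusted p = 1.89e-13). Sall3 (NM_178280, chromosome 18, 81163113 to 81183317) was at 199, 155, 191 and 161 CPM in host microglia. Engrafted cells had 3, 0, 0 and 1 Sall3 reads, none above the 3 reads that a count of 0 allows (3.02 to 5.40 CPM, depending on the library). Summed over libraries, 694 host reads stood against 4 engrafted reads, a ratio of CPM of 121 with an exact 95% counting interval of 47.0 to 445 (adjusted p of the test on libraries 8.75e-15). Mouse 5 gave 3 of the 4 engrafted reads. Over mice 6 to 8 alone, 558 host reads stood against 1 engrafted read, a ratio of 300.9 (interval 53.8 to 11905). The study's methods name no removal of PCR duplicates, and such intervals cover counting error of reads only.

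The factors of the shared macrophage base lay close together in the populations. Spi1 was at 643 ± 56.7 CPM in host microglia and 655 ± 80.2 CPM in engrafted cells (SD, n = 4), with a log2 difference of 0.08 and a 95% interval of -0.16 to 0.33 (adjusted p = 0.665). Irf8, the partner of PU.1 that microglia and monocyte-derived macrophages need, was at 769 ± 52.8 and 715 ± 18.5 CPM, and the interval of its log2 difference ran from -0.27 to 0.17. For Runx1 (407 ± 53.7 and 353 ± 53.2 CPM) the interval was -0.43 to 0.14, and for Cebpa, the factor of the myeloid progenitor (227 ± 33.5 and 186 ± 13.8 CPM), -0.53 to 0.05. These intervals leave out a 2-fold difference in either direction. The same held for both MEF2 genes. Mef2a was at 288 ± 7.66 and 302 ± 42.1 CPM (-0.15 to 0.39) and Mef2c at 315 ± 61.8 and 300.1 ± 46.1 CPM (-0.33 to 0.30), the latter with a host library of mouse 8 (228 CPM) below all engrafted ones. Maf was the exception among them. It was at 272, 270.0, 282 and 204 CPM in host microglia and at 403, 364, 419 and 356 CPM in engrafted cells, so every engrafted library was above every host library. The log2 fold change of 0.64 (SE 0.13, interval 0.36 to 0.92, adjusted p = 0.000616) fell short of 2-fold.

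**Figure D1:**
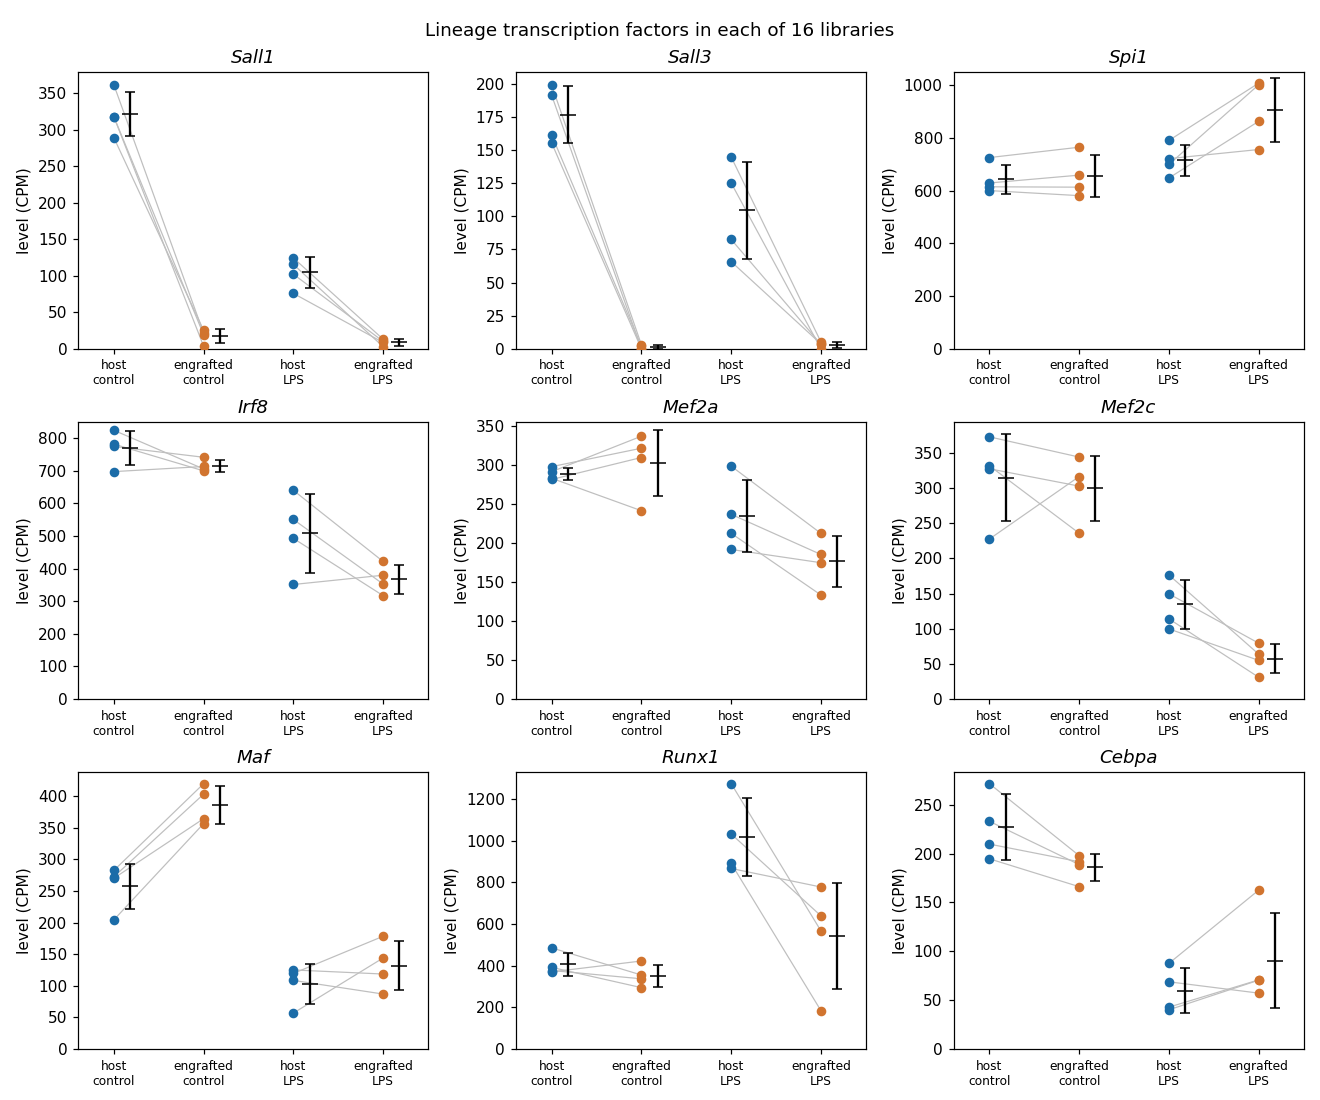
Level of each lineage factor in the 16 libraries, in CPM (y axis, from 0, its own scale for each gene), by population and challenge (x axis); blue points are host microglia, orange points engrafted cells, grey lines join the populations of 1 mouse, and black marks give the mean ± SD (n = 4). Sall1 and Sall3 sit near 0 in all 8 engrafted libraries, Mef2c, Maf and Cebpa are lower after LPS in both populations, and Runx1 is higher in host microglia.

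Reads of Sall1 in engrafted cells were few but recurrent, and they were set beside genes that host microglia express and engrafted cells hardly do. Those genes, and the engrafted-cell genes named below, were picked for that restriction, so low shares follow from the choice. Within a mouse the engrafted level of Sall1 was 6.02, 1.06, 5.90 and 8.72% of the host level in control mice 5 to 8, and 9.86, 11.3, 10.5 and 2.43% in LPS mice 1 to 4. Sall3 stood at 0 to 1.52% in control mice and 0 to 5.56% in LPS mice. The median in control mice was 5.96% for Sall1 and 0.558% for Sall3. It was 2.52% for the protease gene Klk8, 1.99% for the uroplakin gene Upk1b, 4.12% for the fructose transporter gene Slc2a5, 14.0% for the stem cell and microglia antigen gene Cd34 and 0 for the retinoid receptor gene Rxrg. In LPS mice these medians were 10.2% for Sall1, 3.83% for Sall3, 3.53% for Klk8, 5.89% for Upk1b, 8.64% for Slc2a5, 17.2% for Cd34 and again 0 for Rxrg. The shares differed between some genes within the same libraries, as for Cd34 (12 to 45 engrafted reads a library in control mice) and Rxrg (0 reads). Others rest on few reads. In LPS mice engrafted libraries held 0 to 2 reads of Upk1b, 0 to 6 of Slc2a5 and 0 to 4 of Sall3. Differences between genes were not tested. In the opposite direction, the engrafted-cell genes Runx3, Ccr2, Clec12a, Cd38 and Ms4a7 reached 0 to 9.92% of their engrafted level in host microglia, and Cmah 0 to 0.695% in control mice (it had no engrafted read after LPS). Whether the Sall1 reads were made by engrafted cells or by a few host cells in the gate was not tested.

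**Figure D2:**
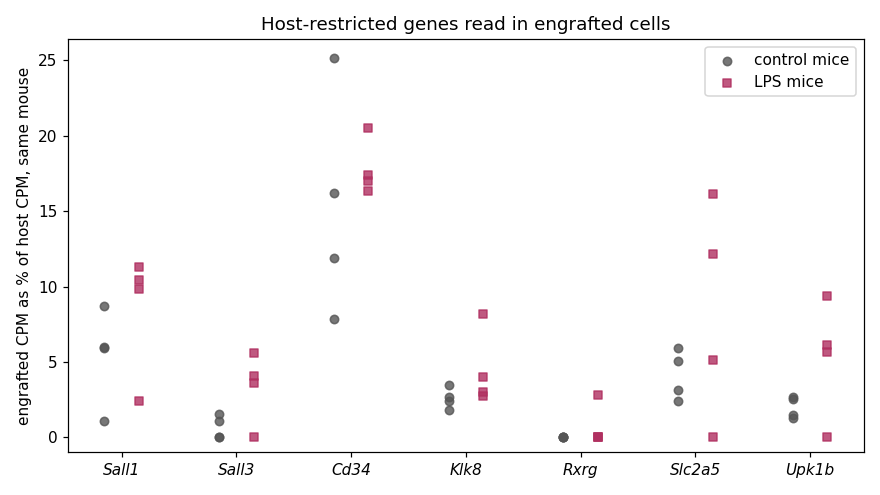
Engrafted level of 7 host-restricted genes as a percentage of the host level in the same mouse (y axis), by gene (x axis), with 1 point for each mouse (circles, control; squares, LPS). Cd34 has the highest shares, 7.83 to 25.2% in control mice, Sall1 lies between 1.06 and 11.3%, and Rxrg is at 0 in 7 of 8 mice.

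Sall3 made up a smaller share of the pooled SALL reads in engrafted cells than in host microglia. Of 1974 reads on Sall1 or Sall3 in control host microglia, 694 were Sall3 (35.2%, exact 95% interval 33.0 to 37.3). Of 52 such reads in control engrafted cells, 4 were (7.69%, interval 2.14 to 18.5), and the intervals do not overlap. These intervals cover counting error of the reads pooled over 4 mice, not the spread between mice. In engrafted cells of mice 5 to 8 there were 0.158, 0, 0 and 0.0714 Sall3 reads for each Sall1 read. In their host microglia there were 0.489 to 0.627, and the difference was not tested across mice. Without mouse 5 the engrafted share was 1 of 30 reads (3.33%, interval 0.0844 to 17.2). After LPS the share was 49.8% of 699 host reads (46.0 to 53.6) and 27.0% of 37 engrafted reads (13.8 to 44.1).

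The LPS challenge asked how the same factors respond in each population. In host microglia 5 of 9 factors were called, Sall1, Mef2c, Maf and Cebpa lower and Runx1 higher, where 18.0% of the 8238 genes tested were called, 7.66% higher and 10.4% lower. Without the fold criterion 7 of 9 passed and 39.7% of all genes did. The median log2 fold change of the factors was -0.78, and that of all genes 0.01. In engrafted cells 3 factors were called of the 7 that had enough reads to be tested, Mef2c, Maf and Cebpa, all lower, where 21.5% of 7609 genes were called, 10.2% higher and 11.3% lower. Of these 7, 5 passed without the fold criterion, and 38.7% of all genes. Groups did not overlap for 7 of 9 factors in host microglia (35.7% of genes) and for 5 in engrafted cells (35.0%).

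Sall1 fell in host microglia, to 102, 75.8, 124 and 115 CPM in LPS mice 1 to 4. All 4 were below the lowest control library. The log2 fold change was -1.64 (SE 0.16, adjusted p = 5.45e-08). Sall3 came down less, to 82.6, 65.8, 145 and 125 CPM, also below every control library, with a log2 fold change of -0.78 that did not reach 2-fold (SE 0.20, adjusted p = 0.00372). The number of Sall3 reads for each Sall1 read made the same point within libraries. It was 0.627, 0.489, 0.530 and 0.558 in control mice and 0.809, 0.868, 1.17 and 1.08 in LPS mice. On the log2 scale the ratio was higher by 0.82 after LPS (exact two-sided permutation test, p = 0.0286, the smallest that 4 against 4 allows, a comparison chosen after the levels had been seen). In engrafted cells Sall1 was at 10.1, 8.54, 13.0 and 2.80 CPM after LPS, from 9, 7, 10 and 1 reads, and overlapped the control libraries (exact permutation test, p = 0.143). Sall3 had 3, 3, 4 and 0 reads there (exact p = 0.2). With all libraries neither gene had enough reads for the test across genes. Without the engrafted library of control mouse 6, which had 2 Sall1 reads, Sall1 had enough and was called lower after LPS (log2 fold change -1.23, SE 0.40, adjusted p = 0.026). It could be tested under 8 other settings and was called under none of them (without the library of LPS mouse 4, -0.75, adjusted p = 0.193).

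**Figure D3:**
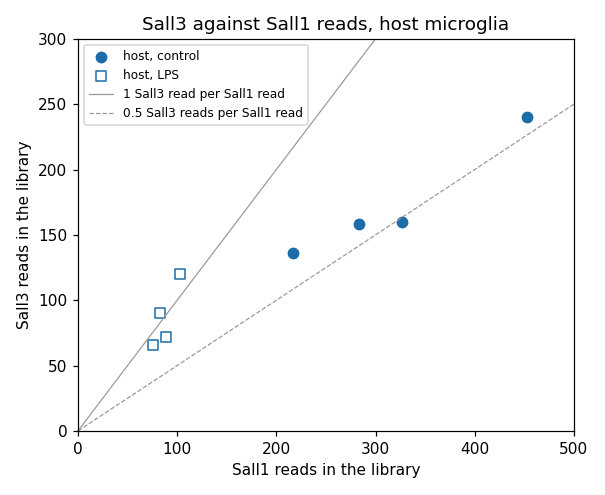
Sall3 reads (y axis) against Sall1 reads (x axis) in the 8 host microglia libraries; filled circles are control mice and open squares LPS mice, the dashed line is 0.5 and the solid line 1 Sall3 read for each Sall1 read. Control libraries lie along the dashed line at 0.489 to 0.627, and LPS libraries between 0.809 and 1.17.

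Mef2c fell in both populations. In host microglia it went from 373, 332, 328 and 228 CPM in control mice to 177, 99.7, 149.7 and 114 CPM after LPS. The groups were apart, with a log2 fold change of -1.23 (SE 0.19, adjusted p = 1.72e-05). In engrafted cells it went from 344, 236, 303 and 317 CPM to 63.8, 54.9, 79.4 and 30.8 CPM, a 5.20-fold drop (log2 fold change -2.38, SE 0.22, adjusted p = 4.3e-08). Mef2a was called in neither population. It was 235 ± 46.2 CPM in LPS host microglia, with an interval of -0.62 to 0.00 for the log2 fold change and an adjusted p of 0.108. In engrafted cells it was at 133, 174, 212 and 185 CPM after LPS, all below the control range of 241 to 337 CPM, with a log2 fold change of -0.82 (adjusted p = 0.00188) that did not reach 2-fold.

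Maf and Cebpa were lower after LPS in each population too. Maf was at 125, 56.8, 119.5 and 109 CPM in LPS host microglia, each below the 204 CPM of the lowest control library (log2 fold change -1.35, SE 0.20, adjusted p = 1.11e-05). In engrafted cells it was at 119, 144, 178 and 86.9 CPM, below their control range of 356 to 419 CPM (log2 fold change -1.57, SE 0.20, adjusted p = 3.64e-06). Cebpa had the steepest fall among the factors in host microglia, from 195, 233, 210 and 272 CPM to 40.1, 42.9, 68.8 and 87.6 CPM (log2 fold change -1.96, SE 0.21, adjusted p = 1.35e-07). In engrafted cells it went from 166, 189, 192 and 198 CPM to 70.5, 70.8, 57.2 and 163 CPM. The last of these values, from mouse 4, lay just under the control range, and the log2 fold change was -1.16 with it (adjusted p = 0.00113) and -1.52 without it (adjusted p = 2.26e-07). Without the engrafted library of LPS mouse 3 it was -0.98 (adjusted p = 0.00798), just short of 2-fold.

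Runx1 was the only factor called higher. Host microglia had 486, 392, 377 and 371 CPM in control mice and 1275, 867, 1033 and 892 CPM after LPS, without overlap (log2 fold change 1.31, SE 0.16, adjusted p = 9.62e-07). Engrafted cells had 356, 295, 338 and 423 CPM in control mice and 568, 778, 640 and 185 CPM after LPS. In 3 mice the LPS library was above all controls and the library of mouse 4 was below all of them. With all libraries the log2 fold change was 0.59 (adjusted p = 0.102), and without mouse 4 it was 0.87 (adjusted p = 0.000107), short of 2-fold.

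Spi1 was called in neither population, and Irf8 came close to 2-fold in 1 of them. Spi1 was 715 ± 59.1 CPM in host microglia after LPS, and the interval of its log2 fold change, -0.14 to 0.42, leaves out a 2-fold change. In engrafted cells it was at 1002, 756, 1008 and 863 CPM against 581 to 765 CPM in controls (log2 fold change 0.43, adjusted p = 0.0593, or 0.0176 without mouse 4). Irf8 was at 550.5, 351, 639.9 and 492 CPM in LPS host microglia, below the control range of 697 to 824 CPM, with a log2 fold change of -0.61 (adjusted p = 0.00517). In engrafted cells it was at 352, 379, 422 and 317 CPM against 699.6 to 741 CPM in controls, 1.99-fold lower, which missed the 2-fold line (adjusted p = 9.8e-05). Scaling by library totals took it past that line (-1.07), as did leaving out the engrafted library of LPS mouse 3 (-1.06), and it was also called in a single fit of 16 libraries and without the engrafted library of control mouse 7.

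After LPS the engrafted cells were again compared with the host microglia of the same mice. By the same rule 3 of 9 factors were called, Sall1, Sall3 and Mef2c, all lower in engrafted cells, where 11.1% of 7843 genes were called, 6.73% higher and 4.34% lower. Without the fold criterion the count was also 3, against 17.1% of all genes, and 4 of 9 factors did not overlap, against 20.6%. Sall1 had a log2 fold change of -3.43 (SE 0.29, adjusted p = 1.36e-07). For Sall3, 348 host reads stood against 10 engrafted reads, a ratio of 28.9 with a counting interval of 15.5 to 60.7 (adjusted p = 1.3e-07).

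Mef2c was called between the populations after LPS. All 4 engrafted libraries (30.8 to 79.4 CPM) were below all 4 host libraries (99.7 to 177 CPM), with a log2 fold change of -1.16 (SE 0.24, adjusted p = 0.00207). Runx1 also did not overlap, at 185 to 778 CPM in engrafted cells and 867 to 1275 CPM in host microglia. Here the log2 difference was -0.88 (adjusted p = 0.0508). With the mouse as a block, which compares the populations within each animal, the difference was 2.00-fold (adjusted p = 0.00546) and was called, and without mouse 4 it was -0.60 (adjusted p = 0.0332) and was not. Leaving out the engrafted library of mouse 2 (-1.09, adjusted p = 0.0293) or scaling by library totals (-1.02, adjusted p = 0.0284) also led to a call. The block left the other calls as they were. Maf, higher in engrafted cells of control mice, overlapped after LPS (132 ± 38.7 against 102 ± 31.2 CPM, adjusted p = 0.301), as did Spi1, Irf8, Mef2a and Cebpa (adjusted p = 0.173 to 0.296).

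**Figure D4:**
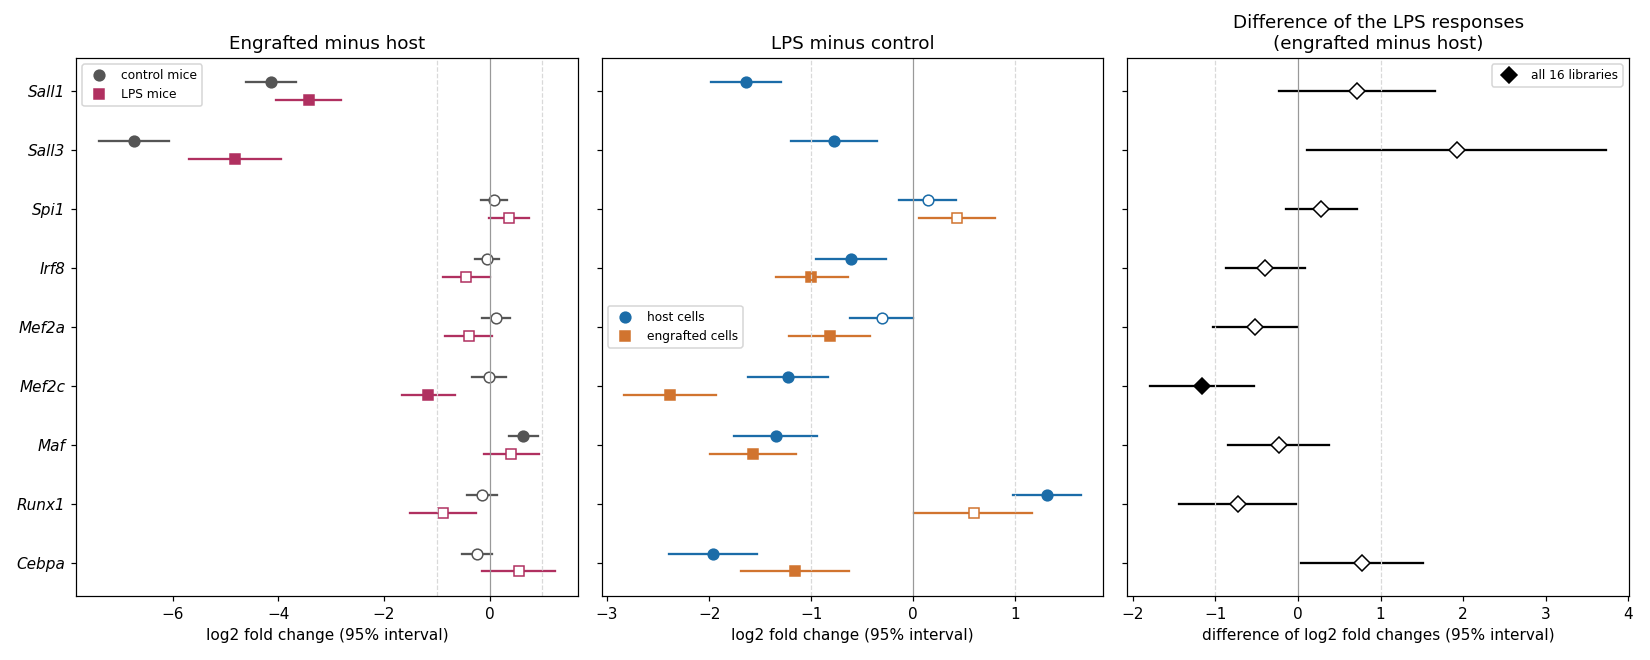
Log2 fold changes of the 9 factors with 95% intervals (x axis): engrafted minus host in control and LPS mice (left), LPS minus control in host and engrafted cells (middle), and the difference of the LPS responses (right). Filled symbols have an adjusted p below 0.05 and dashed lines mark 2-fold; Sall1 and Sall3 were not fitted for LPS in engrafted cells, the fitted values of Sall3 for engrafted cells rest on at most 4 reads a library, and Mef2c is the only filled symbol on the right.

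Whether the responses themselves differed was tested with an interaction term over all 16 libraries. One of 9 factors was called, where 4.95% of 8847 genes were, 2.45% higher and 2.50% lower, and without the fold criterion it was again 1 of 9 against 5.88% of genes. That factor was Mef2c, whose fall was larger in engrafted cells by 1.16 on the log2 scale (difference -1.16, SE 0.31, adjusted p = 0.0222, and 0.00388 with the mouse as a block). The adjusted p was 0.0255 without mouse 4, but rose as high as 0.0638 when another single library was left out, and 4 such omissions ended the call: the host libraries of mice 1, 3 and 8 and the engrafted library of mouse 2. For the other 8 factors the adjusted p was 0.225 to 0.73. The intervals of Spi1 (-0.15 to 0.72), Irf8 (-0.87 to 0.08) and Maf (-0.84 to 0.38) leave out a 2-fold difference in response. Others were wider, -1.44 to -0.02 for Runx1, 0.04 to 1.51 for Cebpa, -1.03 to -0.01 for Mef2a and -0.23 to 1.66 for Sall1. A 2-fold difference was not left out for these. Without the engrafted library of LPS mouse 4 the estimates were smaller, -0.47 (-0.93 to 0.00) for Runx1 and 0.41 (-0.19 to 1.00) for Cebpa. With the block the adjusted p was 0.0792 for Runx1 and 0.0619 for Cebpa. The estimate for Sall3 (1.92, interval 0.11 to 3.73) rests on engrafted groups of 4 and 10 reads.

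The relatives of these factors, 26 genes of the same SALL, ETS, IRF, MEF2, MAF, RUNX and C/EBP families, were read from a list beside them. In control mice 2 of 14 tested relatives were called, Runx3 and Irf7, both higher in engrafted cells, where 11.0% of all genes were called. Runx3, the RUNX gene known from T cells, dendritic cells and some tissue macrophages, was at 45.4 ± 7.67 CPM in engrafted cells and at 0 to 3.06 CPM in host microglia (log2 fold change 4.85, SE 0.41, adjusted p = 7.79e-10). Irf7, which drives type I interferon expression, was at 164 ± 25.3 and 79.8 ± 9.82 CPM (log2 fold change 1.09, adjusted p = 1.28e-06). Mef2d (-0.45), Irf1 (0.43) and Irf5 (-0.41) passed the adjusted p only.

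In the C/EBP family, Cebpb and Cebpd rose after LPS and Cebpg fell. Cebpb, the C/EBP of acute-phase and inflammatory transcription, rose in host microglia from 251 ± 33.0 to 619 ± 56.1 CPM (log2 fold change 1.29, adjusted p = 3.2e-07) and in engrafted cells from 297 ± 45.8 to 1345 ± 651 CPM (2.15, adjusted p = 3e-06). Cebpd rose in host microglia from 279 ± 27.3 to 620.1 ± 46.5 CPM (1.14, adjusted p = 1e-06), while Cebpg, a C/EBP without an activation domain, fell there (-1.45, adjusted p = 2.67e-06). Both passed the adjusted p in engrafted cells in the same directions, short of 2-fold (0.72, adjusted p = 0.0202, and -0.69, adjusted p = 0.0375). Cebpa was called lower in each population. Irf7 reached 1093 ± 290.4 CPM in engrafted cells after LPS (log2 fold change 2.69, adjusted p = 7.94e-09) and 160 ± 37.7 CPM in host microglia (0.99, adjusted p = 0.00013). Its response was larger in engrafted cells (difference 1.70, SE 0.28, adjusted p = 0.000314). Irf5 differed in response too, but by 0.94 and so short of 2-fold (adjusted p = 0.0126). In all, 2 of 15 relatives were called higher after LPS in engrafted cells and none lower, against 10.2% and 11.3% of all genes. Without mouse 4 it was 3 of 15, as Runx3 went from 0.99 to 1.22. In host microglia 2 of 14 were called higher and 1 lower, against 7.66% and 10.4% of all genes. Between the populations of LPS mice 3 of 15 were called, all higher in engrafted cells: Runx3 (5.25), Irf7 (2.79) and Cebpb (1.15), where 6.73% of all genes were called higher. Without mouse 4 it was 2 of 15, since Cebpb came to 0.75 (adjusted p = 0.00399).

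The 5 cofactor genes of RUNX and MEF2 proteins were Cbfb, the obligate partner of RUNX, and the class IIa deacetylase genes Hdac4, Hdac5, Hdac7 and Hdac9, whose products silence MEF2 targets. None of the 3 tested in control mice was called, with 2 of 3 called in host microglia after LPS, 1 of 4 in engrafted cells, 1 of 3 between the populations of LPS mice and 1 of 5 for the interaction. Of all genes, 18.0%, 21.5%, 11.1% and 4.95% were called in these 4 comparisons. LPS was followed by opposite changes in the deacetylase genes. Hdac4 rose in host microglia from 37.0 ± 8.09 to 149 ± 21.2 CPM (log2 fold change 2.01, SE 0.19, adjusted p = 2.77e-08) and was at 39.6 ± 12.5 and 69.4 ± 5.14 CPM in engrafted cells (0.75, adjusted p = 0.0155). The response was smaller in engrafted cells by 1.27 on the log2 scale (difference -1.27, adjusted p = 0.00867), and after LPS the level was lower there (-1.08, adjusted p = 0.000233). Hdac5 fell in host microglia from 126 ± 19.0 to 44.9 ± 21.0 CPM (-1.53, adjusted p = 2.12e-05) and in engrafted cells from 126 ± 10.7 to 39.1 ± 7.42 CPM (-1.73, adjusted p = 1.06e-06).

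**Figure D5:**
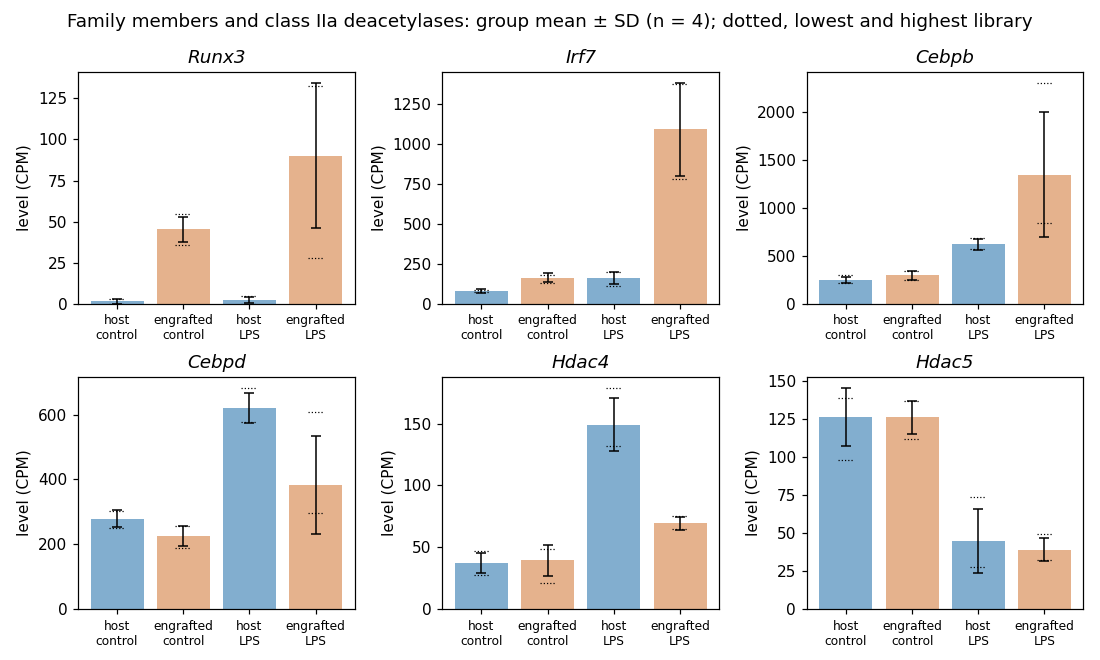
Mean level ± SD (n = 4) of 6 relatives and cofactor genes in CPM (y axis, from 0), by population and challenge (x axis), with dotted lines at the lowest and highest library. Runx3 is near 0 in host microglia, Irf7 and Cebpb are highest in engrafted cells after LPS, Hdac4 is highest in host microglia after LPS, and Hdac5 is lower after LPS in both.

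SALL1 represses through the NuRD complex, a chromatin remodeler with deacetylase subunits. Of 13 NuRD genes, 1 was called in control mice, Mta3, where 11.0% of all genes were. It was at 8.09 CPM in host microglia and higher in engrafted cells (log2 fold change 1.12, adjusted p = 0.0203). None was called of 11 between the populations of LPS mice, 11 for LPS in engrafted cells, 12 for LPS in host microglia and 13 for the interaction. Of all genes, 11.1%, 21.5%, 18.0% and 4.95% were called in these comparisons. The methyl-DNA binding subunit gene Mbd2 passed the adjusted p in both responses to LPS without reaching 2-fold (0.94 in engrafted cells and 0.49 in host microglia), and the helicase gene Chd3 did so in control mice (0.60).

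Among 37 other transcription factor genes of macrophage lineages, 1 was called higher and 4 lower in engrafted cells of control mice, of 29 tested, where 6.25% of all genes were called higher and 4.73% lower. Ahr, the aryl hydrocarbon receptor gene, was at 43.8 ± 12.5 CPM in engrafted cells and had no read in 4 host libraries. Rxrg was the reverse, at 64.0 CPM in host microglia and without a read in engrafted cells. After LPS Ahr was read in host microglia too, at 6.96 to 22.9 CPM, and was at 25.2 to 70.5 CPM in engrafted cells. Its difference in response (-6.28, adjusted p = 0.00034) rests on control host libraries without a read. Egr2 (log2 fold change -1.79, adjusted p = 2e-06) and Bhlhe41 (-1.28, adjusted p = 3.32e-05) were lower in engrafted cells. More of the list was called lower than higher after LPS, with 10 lower and 2 higher of 28 in host microglia, and 9 lower and 3 higher of 29 in engrafted cells (12 and 4 of 31 without mouse 4). Of all genes, 10.4% were called lower and 7.66% higher in host microglia, and 11.3% lower and 10.2% higher in engrafted cells. The blood-lineage bHLH gene Tal1 fell in both (-1.57 in host microglia, -2.06 in engrafted cells) as did the TGF-β effector gene Smad3 (-1.53 and -1.09). The inhibitor gene Id2 rose from 445 to 2079 CPM in host microglia (2.21, adjusted p = 5.87e-10) and from 435 to 1353 CPM in engrafted cells (1.60, adjusted p = 9.25e-07). Ets2 rose in both, by 1.55 and 1.78. Nr1h3, the LXRα gene, rose in engrafted cells from 4.00 to 55.6 CPM (3.63, adjusted p = 3.07e-06) and stayed at 0 to 4.08 CPM in all host libraries, a difference in response of 5.14 (adjusted p = 0.0028). In LPS mice 6 of 29 were called higher and 4 lower in engrafted cells (5 and 4 of 30 without mouse 4), where 6.73% and 4.34% of all genes were.

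A list of 12 genes known as targets of these factors in myeloid cells was also read, 10 of them above the filter. In control mice 1 was called higher and 1 lower in engrafted cells, where 6.25% of all genes were called higher and 4.73% lower. After LPS 1 was called higher in engrafted cells, and 2 were called lower in host microglia, of 10 each time. Of all genes, 10.2% were called higher in engrafted cells and 10.4% lower in host microglia. Without mouse 4, Jun was also called lower in engrafted cells (-1.24, adjusted p = 7.2e-07). Between the populations of LPS mice 1 of 10 was called, higher in engrafted cells, against 6.73% of all genes. For the interaction 2 of 10 were called, with a higher response in engrafted cells, against 2.45% of all genes. In control mice Itgam, which encodes CD11b, was at 706 CPM in host microglia against 298 CPM in engrafted ones (log2 fold change -1.19, adjusted p = 3.04e-08). It rose in engrafted cells after LPS to 969 CPM (1.66, adjusted p = 4.63e-07), with a larger response than in host microglia (difference 1.08, adjusted p = 0.00159). Nr4a1, an orphan nuclear receptor gene, was higher in engrafted cells before LPS (1.36, adjusted p = 3.21e-06) and after it (3.53, adjusted p = 3.66e-08), as it fell in host microglia (-1.82, adjusted p = 2.17e-05). Csf3r, the G-CSF receptor gene, fell in host microglia (-1.58, adjusted p = 2.68e-06) and was lower by less than 2-fold in engrafted cells after LPS (-0.88, adjusted p = 0.00327). CD11b staining was part of the sort, so the Itgam level is that of cells selected for its protein.

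The genes whose levels across the 16 libraries ran most like each factor were ranked by the root mean square difference of log2 CPM, after centring each gene, among 8847 genes. For Sall1 they were Tmem8c (0.53), Gp9 (0.58) and Liph (0.60), while the spread of Sall1 itself was 2.08. For Sall3 they were Klk8 (0.62), Slc1a3 (0.68) and Rxrg (0.78). Slc1a3, a glutamate transporter gene better known from astrocytes, was at 143 to 230 CPM in host microglia. In engrafted cells it was at 3.28 to 16.9 CPM. This gene made up most of the summed astrocyte markers in host microglia (148 to 269 CPM, against 11.2 to 28.7 CPM in engrafted cells). None of the other astrocyte markers exceeded 16.1 CPM in a library, and Gfap was at 0 in engrafted control and LPS host libraries. Mef2c ran closest to Ttc28 (0.26), Hpgds (0.31) and Tanc2 (0.33). Runx1 was matched by Mettl1 (0.31), Eprs (0.31) and Ascc2 (0.32), and Cebpa by Ggt5 (0.29), Pld4 (0.29) and Pla2g15 (0.30). Maf had Ehd4 (0.26), Crebrf (0.28) and Itga6 (0.28), and Irf8 had Lpin2 (0.14), Mapk3 (0.16) and Calm2 (0.18). The spread of Spi1 and Mef2a themselves was only 0.24 and 0.36, with Psmb1 (0.16) and Mdm4 (0.18) nearest.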

How the data were processed

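RNA of 16 sorted populations was measured with a derivation of MARS-seq, which reads the 3′ end of transcripts. Per the labels the authors mapped reads to mm9 with HISAT 0.1.5 (the methods of the study name another version) and counted them on exons of 1 model per RefSeq gene with HOMER. They deposited raw counts per gene, which are not normalized. The deposited counts went through edgeR 4.0.16 under R 4.3.3 (filterByExpr with a minimum count of 10 and a minimum total of 15, TMM, quasi-likelihood test, Benjamini-Hochberg adjustment over all genes tested), each pair of groups on its 8 libraries and the interaction on 16. CPM uses TMM-scaled totals. A gene was called at a log2 fold change over 1 in size with an adjusted p below 0.05. Members below the filter got an exact permutation test, which cannot go below 0.0286 with 4 against 4. Scripts were tested on simulated data.

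The populations of 1 mouse are paired by design, as both were sorted from the same animal. Deviations from group means correlated with r of -0.0298 to 0.210 within the 8 mice. The fit without the mouse is the main one, since the study's methods name no such term. Replicate libraries came from separate mice, and each pair differed by 1.98 to 8.64 times counting noise (chi-square per degree of freedom).

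Members and lists were chosen with earlier results of these data known. All 9 members were named. Of each list, up to 4 genes per comparison with the largest fold change among those with an adjusted p below 0.05 could be named, and a gene named for a comparison may appear with its values in others. Promoter windows end at the start of the counted model, and that of 1 member is not reported here. With the 50 bases after the start, 14870 of 17486 windows had the same letters as RefSeq's GRCm38 promoters. Alternatives were DESeq2 1.42.0, RLE factors, library totals, no filter, no fold criterion, 1 fit over all libraries, the mouse as a block and each library left out.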

Additional observations from a re-analysis of the deposited data

Results flagged for a closer look

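Of 36 sets of 4 libraries (9 factors in 4 groups), 2 held a library far from the other three by Dixon's ratio (critical value 0.829), and chance flags about 1 in 20. Cebpa was at 163 CPM in the engrafted library of LPS mouse 4, against 57.2 to 70.8 CPM in its group. The red cell markers of that library summed to 4298 CPM, and their part in this value was not tested. Maf was at 204 CPM in the host library of control mouse 8, against 270.0 to 282 CPM in the others. The Mef2c response to LPS differed between the populations by the interaction test, with a difference of -1.16 on the log2 scale, engrafted minus host (standard error 0.31, adjusted p = 0.0222 in edgeR).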

How the results depend on the processing

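In the 649 recomputed fold changes, 416 of them with 1 library left out, no setting other than leaving out a library turned a direction. Omitting 1 of 3 libraries turned the near-zero Mef2c difference between the populations of control mice, to 0.08, 0.08 and 0.01, and the range over omissions was -0.14 to 0.08. Without the fold criterion 5 factors passed in place of 3 for LPS in engrafted cells. The interaction count was 0 to 1 over the omissions and 1 under the other settings. With the replicate block, which pairs the populations of a mouse, the counts were 2 in control mice, 4 after LPS and 1 for the interaction. Adjusted p for Runx1 after LPS ran from 0.00105 to 0.155 over 14 alternatives, 7 of them below the threshold, and the cause was not tested. For LPS in engrafted cells the count was 3 to 4 over the omissions and 4 with library totals or a single fit of 16 libraries. Sall1 and Sall3 missed the filter there with all libraries. Under the 9 settings that tested Sall1 its log2 fold change was -1.23 to -0.72, called under 1. The depth limits both there, at 37 reads in all.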
